A study of Mus musculus with 2 samples.

Results

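Before a dividing cell copies its DNA it passes through G1, where a set of brakes decides whether it may start S phase. The mRNAs of 10 of these brakes were followed here in mouse embryonic stem (ES) cells without Drosha: the Cdk inhibitors Cdkn1a (p21), Cdkn1b (p27), Cdkn1c (p57), Cdkn2a (p16Ink4a and p19Arf) and Cdkn2c (p18), the pocket proteins Rb1, Rbl1 (p107) and Rbl2 (p130), and the kinases Lats1 and Lats2. They were listed as G1 inhibitors under ES cell microRNA control, so known microRNA targets are among them. They were taken by gene symbol, through the GENCODE M21 names of the Ensembl identifiers, and are 10 of the 43629 genes counted. All 10 had reads in both libraries.

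The study sequenced poly-A RNA of newly made Drosha knockout ES cells, produced by a paired CRISPR/Cas9 approach. Drosha is the nuclear enzyme that starts microRNA production by releasing precursor hairpins. The cells were of the 129/Ola background, derived from the blastocyst, untreated, kept in serum plus LIF (a cytokine that sustains self-renewal) and harvested at passage 7. Both libraries, A and B, belong to this 1 group, and both carry the knockout. With 1 genotype no level can be set against cells that make microRNAs, so the levels below are a description. The titles of the libraries number the cells 1 and 2 while their source name is the same. So A and B may be separate lines or 1 line, and the spread between them may be technical. Both titles also carry the code d5, whose meaning is not known here.

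Cyclin D with Cdk4 or Cdk6, and later cyclin E with Cdk2, phosphorylate the pocket proteins, which then release E2F transcription factors and let S phase genes be expressed. Cip/Kip inhibitors (Cdkn1a, Cdkn1b, Cdkn1c) bind cyclin and Cdk complexes broadly, and Ink4 inhibitors (Cdkn2a to Cdkn2d) bind Cdk4 and Cdk6. Lats1 and Lats2 are the last kinases of the Hippo pathway and hold the coactivators Yap and Taz outside the nucleus. Mouse ES cells are known for a short G1 phase with high cyclin E and Cdk2 activity. Their most abundant microRNAs, of the miR-290 cluster and its relatives in the miR-302 cluster, are known to repress several G1 brakes, Cdkn1a, Rbl2 and Lats2 among them.

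These microRNAs are shown because their shared seed (bases 2 to 8, in capitals) defines the sites searched in the brake mRNAs. Mature sequences are from RefSeq on GRCm38.p6, written 5′ to 3′. The first 5 belong to the miR-290 and miR-302 clusters and share the seed AAGUGCU.
miR-291a-3p: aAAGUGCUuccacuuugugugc
miR-294-3p: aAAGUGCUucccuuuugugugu
miR-295-3p: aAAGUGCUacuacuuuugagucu
miR-302b-3p: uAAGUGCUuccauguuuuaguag
miR-302d-3p: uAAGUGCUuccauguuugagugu
The next 4 are miR-17 relatives made in many dividing cells. Their seed AAAGUGC is the ES cell seed moved by 1 base.
miR-17-5p: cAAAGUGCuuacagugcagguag
miR-20a-5p: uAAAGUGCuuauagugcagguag
miR-93-5p: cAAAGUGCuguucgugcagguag
miR-106b-5p: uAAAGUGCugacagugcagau
The last pair, miR-221 and miR-222, are known regulators of Cdkn1b and Cdkn1c and have the seed GCUACAU.
miR-221-3p: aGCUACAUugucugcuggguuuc
miR-222-3p: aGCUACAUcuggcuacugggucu

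A 7-base match to the seed of the miR-290 and miR-302 clusters (the miR-290 match from here on), AGCACTT read on the mRNA strand, was present in the longest annotated 3′ UTR (the untranslated end after the stop codon) of 5 of the 10 brake genes: Cdkn1a, Rbl1, Rbl2, Lats1 and Lats2. It was present in 14.7% of the 21021 protein-coding genes with an annotated 3′ UTR. Since the list was drawn up with microRNA control in mind, a higher share among the brakes is no independent finding. The brakes' 3′ UTRs were longer, with a median of 1505.5 bases against 961 over all these genes, so each gene is set below beside 3′ UTRs within 20% of its own length. The sites are printed with the bases beside them, on the mRNA strand of GRCm38, with the seed match in capitals.
Cdkn1a, first site, chr17:29099818-29099844 on the plus strand: agacctgaatAGCACTTtggaaaaatg
Cdkn1a, second site, chr17:29100490-29100516 on the plus strand: tgggtgtcaaAGCACTTagtgggtctg
Rbl1, chr2:157147468-157147494 on the minus strand: gcctgatcaaAGCACTTttggattgtt
Rbl2, chr8:91123820-91123844 on the plus strand: ttttcaataaAGCACTTataaatta
Lats1, chr10:7714146-7714172 on the plus strand: tcagtggtagAGCACTTgcctaacata
Lats2, first site, chr14:57691077-57691103 on the minus strand: gtatggaaagAGCACTTattttgtgga
Lats2, second site, chr14:57690978-57691004 on the minus strand: tgtatctgatAGCACTTgtccacagct

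Cdkn1a and Lats2 were the brakes with 2 matches. In Cdkn1a they start at bases 435 and 1107 of a 1334-base 3′ UTR, and in Lats2 at bases 195 and 294 of 1626. Only the longest 3′ UTRs are described, and shorter annotated transcripts may lack a site. The shortest Cdkn1a transcript with the longest coding sequence has 922 bases in all, too few to reach base 1107. At least 1 match was present in 13.7% of 3′ UTRs of the length of Cdkn1a and in 17.9% of those of the length of Lats2. There were 2 or more in 0.927% of those of the length of Cdkn1a and in 2.51% of all genes. For the length of Lats2 the share with 2 or more is not given here. The Rbl1 site starts at base 22 of 1613, just after the stop codon, in a length class where 17.6% of 3′ UTRs had a match. The Rbl2 site is at the opposite end. It starts at base 1384 of 1398 and leaves 8 bases before the annotated end of the transcript. It overlaps the hexamer AATAAA at base 1379, the sequence known as the signal for cleavage and polyadenylation. Lats1 has its site at base 1146 of a 3450-base 3′ UTR, and 33.3% of 3′ UTRs of that length had one. An A opposite the first base of the microRNA makes the match 8 bases long. With it 3 brakes were left (Cdkn1a, Rbl2 and Lats2), beside 2.97% of all genes. These 3 are the ones named above as known targets. As the list was drawn up with microRNA control in mind, this overlap is no independent finding either. Among 3′ UTRs of like length the share was 2.39% for Cdkn1a, 2.48% for Rbl2 and 2.74% for Lats2. Cdkn1b and Lats1 had no such match, at lengths where 6.50% and 6.58% had one.

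The 5 brakes without an AGCACTT match differ in length. The 3′ UTRs of Cdkn2a (264 bases), Cdkn2c (373) and Cdkn1c (688) are short, and 2.30%, 3.42% and 6.46% of 3′ UTRs of like length had a match. Cdkn1b, by contrast, had none in 3439 bases, a length at which 33.2% had one. Rb1 had none in 1709 bases, beside 18.4%.

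The miR-17 match GCACTTT shares 6 bases with AGCACTT, so the sites can overlap. It was found in 4 brakes (Cdkn1a, Rb1, Rbl1 and Rbl2), against 11.8% of all genes. In Cdkn1a and Rbl1 it is the same stretch as a miR-290 site. Rb1 and Rbl2 have miR-17 matches of their own, with 2 in Rbl2. These 3 are shown because they put all 3 pocket protein mRNAs among the genes with a miR-17 match.
Rb1, chr14:73196351-73196377 on the minus strand: caacccaagtGCACTTTttaatgtttc
Rbl2, first site, chr8:91123141-91123167 on the plus strand: gtaattggtgGCACTTTatggctgtaa
Rbl2, second site, chr8:91123202-91123228 on the plus strand: atttatgatgGCACTTTctatggtgtg
Either match was present in 6 of the 10 brakes and in 19.98% of all genes, a share not matched for length. The 4 with neither were Cdkn1b, Cdkn1c, Cdkn2a and Cdkn2c. For the miR-17 match the share among 3′ UTRs of like length was 11.8% (Cdkn1a), 14.8% (Rb1), 14.1% (Rbl1) and 12.7% (Rbl2). Cdkn1b and Lats1 had no miR-17 match, at lengths where 27.1% had one.

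The match to miR-221 and miR-222, ATGTAGC, was present in Cdkn1b and Cdkn1c alone among the 10 and in 9.46% of all genes. Both sites have an A opposite the first base of the microRNA. The Cdkn1b site starts at base 2357 of its longest 3′ UTR. The shortest Cdkn1b transcript with the longest coding sequence has 1757 bases in all, too few to reach it.
Cdkn1b, chr6:134924421-134924447 on the plus strand: aaagcattggATGTAGCattgcgcaat
Cdkn1c, chr7:143458916-143458942 on the minus strand: cctttcgttcATGTAGCaggaaccgga
For Cdkn1b 22.2% of 3′ UTRs of like length had a match, and for Cdkn1c 4.55%. The let-7 match CTACCTC, from the family that accumulates as cells differentiate, was in 0 of the 10 and in 9.02% of all genes. Small RNAs were not measured in these libraries, and a match is a stretch of letters, not a measured site.

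**Figure D1:**
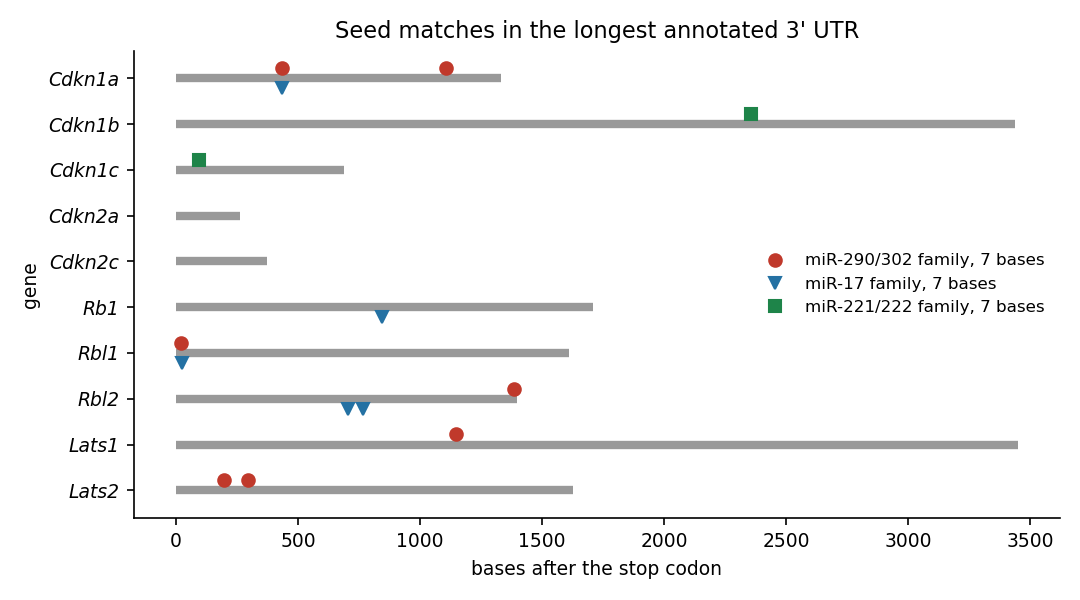
Longest annotated 3′ UTR of each of the 10 genes as a grey bar, in bases after the stop codon (x axis), with 7-base seed matches of the miR-290 family (red circles), the miR-17 family (blue triangles) and the miR-221 family (green squares). Cdkn1a and Lats2 each carry 2 miR-290 matches, the Rbl2 match lies at the end of its 3′ UTR, and Cdkn1b and Cdkn1c carry the miR-221 matches.

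Library A held 29264632 counts and library B 42322129, and 22672 and 23567 genes had a read. Levels are given as CPM, reads divided by library size, after TMM scaling, a factor that puts the bulk of genes of both libraries on 1 scale, and between genes as TPM, which also divides by the summed length of a gene's exons. Intervals around single counts are 95% exact Poisson intervals and take in counting error alone. A level of 3 counts, about the 1-sided 95% limit that a count of 0 allows, is 0.102 CPM in A and 0.0711 CPM in B. Drosha itself had 4865 and 7023 reads (165.8 and 166.4 CPM). A count over the whole gene does not show a deletion of part of it and so does not check the label. All 10 ES cell markers, led by Dppa5a, Pou5f1 and Zfp42, were at 1 CPM or more in both libraries, with sums of 7460 and 7576 CPM. Dppa5a and Tdgf1 were higher in B by the test given below (log2 ratios of B over A of 0.07 and 0.05). With the GC trend removed Dppa5a kept its call and Tdgf1 lost it (adjusted p = 0.283, exact binomial test), and with edgeR's exact test neither passed. Of 12 genes of differentiated lineages, led by Gata4, Eomes and Sox1, 4 reached 1 CPM in both libraries, and the sums of the 12 were 15.8 and 15.7 CPM. Of 15 fibroblast genes, for feeder cells that ES cultures may hold, 8 reached 1 CPM in both libraries. The sums of the 15 were 1740 and 1720 CPM, and Fn1, Vim and Thy1 were highest. Fn1 alone had 1522 and 1511 CPM, Vim 132 and 125 and Thy1 42.9 and 43.7, so the sums are mostly Fn1. Col3a1, Col1a2, Postn and Dcn passed the test as higher in A, with log2 ratios of -2.24, -1.67, -1.93 and -1.60, all at mean levels under 1 TPM. Of these, Col3a1, Col1a2 and Dcn reached 1 CPM in A and not in B, and by edgeR's exact test Col3a1 alone passed. None of the 37 marker genes was at 0 reads in both libraries. The part of such cells in the levels of the brakes was not tested.

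Cdkn1a was the most abundant brake. It encodes p21, an inhibitor of cyclin E and Cdk2 complexes that p53 induces after DNA damage, and lies on chromosome 17 from 29090976 to 29100727 on the plus strand (GRCm38, as all positions here). Library A had 2146 reads and library B 3088, which are 73.1 CPM in both. As TPM these were 55.3 in A and 54.6 in B, a mean of 54.9 ± 0.484 (SD, n = 2). In bulk RNA, fewer cells with a transcript and less of it per cell cannot be told apart. The libraries hardly differed, and the mean was at the 85.1st percentile of the 17124 protein-coding genes with a read. The value depends on the length used, since the 5 annotated transcripts of Cdkn1a differ much in length: it was 76.0 TPM with the longest transcript and 145 TPM with the shortest that holds the longest coding sequence. Cdkn1a was first of the 10 under each of the 3 lengths.

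Cdkn1c and Cdkn1b followed. Cdkn1c, the imprinted gene of p57 on chromosome 7 (143458339 to 143461050, minus strand), had 623 reads in library A and 840 in library B, or 28.0 and 25.9 TPM (mean 26.9 ± 1.47, SD, n = 2). Cdkn1b, which encodes p27 and lies on chromosome 6 (134920401 to 134925513, plus strand), had 1185 and 1660 reads, or 23.8 and 22.9 TPM (mean 23.4 ± 0.649, SD, n = 2). By reads Cdkn1b was the higher of the pair, at 40.4 and 39.3 CPM against 21.2 and 19.9 CPM. Per base of exon Cdkn1c was the higher in both libraries, but the counting intervals of the pair overlapped, and with the shortest transcript that holds the longest coding sequence Cdkn1b was second (41.6 TPM) and Cdkn1c behind it (19.97 TPM). The order of these genes is therefore not settled by these libraries. Of the summed Cip/Kip level of 105 ± 2.61 TPM (SD, n = 2), Cdkn1a held 52.2% ± 0.834, Cdkn1c 25.6% ± 0.768 and Cdkn1b 22.2% ± 0.0666. The share of Cdkn1a was 64.2% with longest transcripts and 70.3% with the shortest that hold the longest coding sequence. Under the latter Cdkn1c held 9.65%, less than the 20.1% of Cdkn1b, and by CPM Cdkn1c held 15.4% and Cdkn1b 29.8%.

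Cdkn2a was read at a moderate level and Cdkn2c at a low one. Cdkn2a, on chromosome 4 (89274471 to 89294653, minus strand), makes the Cdk4 inhibitor p16Ink4a from one start and, from another start and in another reading frame, p19Arf, which stabilises p53 by binding Mdm2. Its 218 reads in A and 282 in B are a sum over both products, which these counts cannot separate. They amounted to 17.0 and 15.1 TPM (mean 16.1 ± 1.35, SD, n = 2), the 62.7th percentile. Cdkn2c, which encodes p18 and lies on the same chromosome (109660876 to 109667189, minus strand), had 16 reads in each library. That is 0.545 CPM in A, with a counting interval of 0.312 to 0.886, and 0.379 CPM in B, with an interval of 0.217 to 0.615. Its mean of 0.460 ± 0.121 TPM (SD, n = 2) was the lowest of the 10 and at the 22.5th percentile, and it was the only one of the 10 under 1 CPM.

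The remaining Ink4 genes were both above Cdkn2c. Cdkn2d (p19Ink4d) had 236 and 383 reads, or 13.7 and 15.3 TPM, and Cdkn2b (p15, the neighbour of Cdkn2a) had 65 and 94 reads, or 4.28 and 4.25 TPM. Of the Ink4 sum of 35.3 ± 0.389 TPM (SD, n = 2), Cdkn2a held 45.5% ± 3.32 and Cdkn2d 41.1% ± 3.58, so these shares overlapped between libraries, and in CPM Cdkn2d held the larger share (46.8% against 38.6%). Cdkn2b held 12.1% ± 0.0693 and Cdkn2c 1.30% ± 0.328. The Cip/Kip sum was 2.98 ± 0.0411 times the Ink4 sum (SD, n = 2), 3.49 times with longest transcripts and 7.10 times with the shortest that hold the longest coding sequence.

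Among the pocket proteins, Rb1 was highest, Rbl1 close to it and Rbl2 well under both. Rb1, the retinoblastoma protein gene on chromosome 14 (73183673 to 73325822, minus strand), had 1011 reads in library A and 1528 in library B, or 15.4 and 16.0 TPM (mean 15.7 ± 0.406, SD, n = 2). Rbl1, whose protein p107 binds mainly the repressor E2Fs in cycling cells, lies on chromosome 2 (157145893 to 157204534, minus strand) and had 797 and 1313 reads. These are 12.2 and 13.8 TPM (mean 12.97 ± 1.13, SD, n = 2). Rbl2, whose protein p130 is the main pocket protein of resting cells, lies on chromosome 8 (91070057 to 91123844, plus strand) and had 279 and 463 reads, or 3.38 and 3.85 TPM (mean 3.61 ± 0.332, SD, n = 2). Rb1 held 48.6% ± 1.55 of the pocket protein sum of 32.3 ± 1.86 TPM (SD, n = 2), Rbl1 40.2% ± 1.17 and Rbl2 11.2% ± 0.383. Rbl2 held 13.3% with longest transcripts.

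The Lats pair was unequal. Lats1, on chromosome 10 (7681214 to 7716460, plus strand), had 770 reads in library A and 1140 in library B, or 9.66 and 9.81 TPM (mean 9.74 ± 0.110, SD, n = 2). Lats2, on chromosome 14 (57689662 to 57758388, minus strand), had 129 and 186 reads, or 1.69 and 1.68 TPM (mean 1.68 ± 0.0124, SD, n = 2). Lats1 thus held 85.2% ± 0.235 of the Lats level (SD, n = 2) and Lats2 14.8%, with Lats2 between 11.7% and 18.7% over the other lengths. Lats2 was at the 32.5th percentile of protein-coding genes with a read, above Cdkn2c alone among the 10.

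The libraries were made by a reverse-stranded protocol, but whether the counting used strand was not given in the sources used here. If the counting did not, some counts may hold reads of neighbours or lack reads shared with them. Exons of Rb1 overlap those of Rcbtb2 over 488 bases (8.11% of the exon length of Rb1) and those of Lpar6 over 408 bases (6.78%), both on the opposite strand. Rcbtb2 had 802 and 1263 reads and Lpar6 367 and 528. Rbl2 overlaps Aktip, also on the opposite strand, over 693 bases (9.17%), and Aktip had 1359 and 1909 reads, more than Rbl2. By share of exon length, the largest overlap with the opposite strand is that of Cdkn1c with the antisense gene Gm44732, over 625 bases (30.7%). Also on the opposite strand, Rbl2 overlaps Gm45464 over 892 bases (11.8%) and Cdkn1a overlaps AC167363.2 over 273 bases (7.68%). None of Gm44732, Gm45464 and AC167363.2 has a row among the counted genes. If strand was not used, their reads cannot be told apart from those of the brakes. In the annotation, Lats2 shares 42.4% of its exon length with Gm49361 on the same strand, a gene model with no row among the counted genes.

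Ranked by mean TPM the order was Cdkn1a, Cdkn1c, Cdkn1b, Cdkn2a, Rb1, Rbl1, Lats1, Rbl2, Lats2 and Cdkn2c. Cdkn2a and Rb1 overlapped between the libraries, so their places cannot be told apart. The counting intervals also overlapped for Cdkn1c and Cdkn1b and for Rb1 and Rbl1. The order was the same with longest transcripts, and with the shortest that hold the longest coding sequence Cdkn1b passed Cdkn1c and Lats1 passed Rbl1. The gaps after Cdkn1a (2.04 times), Lats1 (2.69 times), Rbl2 (2.14 times) and Lats2 (3.67 times) were larger than the differences between the libraries. The median of the 10 was 14.3 ± 0.468 TPM (SD, n = 2). That is the 60.7th percentile of protein-coding genes with a read, and the 46.0th of the 12458 at 1 CPM or more in both libraries. In all, 9 of the 10 were at 1 CPM or more in both libraries, against 72.8% of protein-coding genes with a read. The 5 genes with a miR-290 match ranged from 1.68 TPM (Lats2) to 54.9 TPM (Cdkn1a). The 5 without ranged from 0.460 TPM (Cdkn2c) to 26.9 TPM (Cdkn1c). These ranges overlapped widely, and an effect of the matches on level was not tested, since both libraries carry the knockout.

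**Figure D2:**
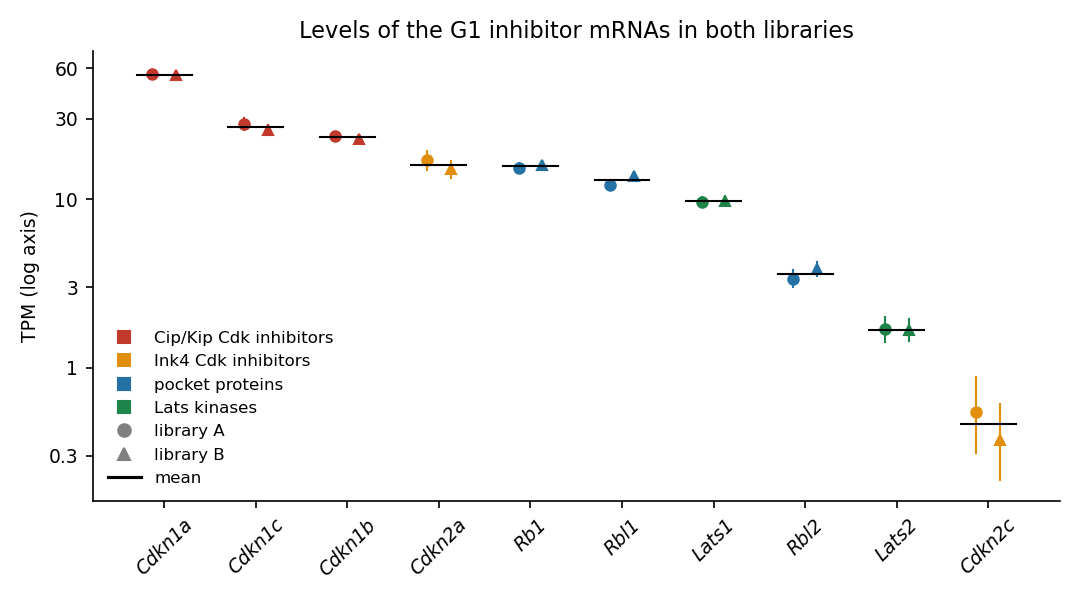
TPM on a log axis (y) of the 10 genes (x), ordered by mean, in library A (circles) and library B (triangles), with 95% counting intervals as vertical lines and the mean of both as a black bar; colours mark the gene families. Cdkn1a stands at 54.9 TPM at the top, 6 genes lie between 9.74 and 26.9 TPM, and Rbl2, Lats2 and Cdkn2c lie apart at the bottom.

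The only comparison these samples allow is between the libraries themselves. With 1 library a side it has no replicate check, so each gene's split of reads was compared with the split of the scaled library totals by a two-sided exact binomial test, with Benjamini-Hochberg adjustment over all 18198 genes with at least 10 reads. The test compares these libraries, not conditions. At an adjusted p under 0.05 it called 2.29% of genes, 237 higher in B and 180 higher in A, and 0 of the 10 brakes. At an unadjusted p under 0.05 it took 12.4% of genes and 1 of the 10, Rbl1. With edgeR's exact test and an assumed coefficient of variation between libraries of 0.1, 0 of the 10 passed either way, beside 1.18% of genes unadjusted and 0.0055% adjusted. The median log2 ratio of B over A was 0.00057 over the 10 and -0.00084 over all genes tested.

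The pocket protein genes had the highest ratios of the 10. Rbl1 had 27.2 CPM in A (counting interval 25.3 to 29.1) and 31.1 CPM in B (29.4 to 32.8), so these intervals did not overlap. Its log2 ratio was 0.19, with an interval of 0.07 to 0.32, and it did not pass the adjusted threshold (exact binomial test, p = 0.00261, adjusted p = 0.0851). Rbl2 had a log2 ratio of 0.20 (interval -0.01 to 0.43, adjusted p = 0.439 by the same exact test) and Rb1 of 0.07 (-0.04 to 0.19, adjusted p = 0.720). The libraries differed by GC content, and genes of the GC content of Rbl1 had a median log2 ratio of 0.03. With that median removed Rbl1 was at 0.16 (adjusted p = 0.337, exact binomial test).

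None of the 5 Cdk inhibitors among the 10 differed between the libraries beyond counting error. Cdkn1a was the most precisely measured, with a log2 ratio of 0.00 to the second decimal and an interval of -0.08 to 0.08. The intervals were -0.15 to 0.07 for Cdkn1b, -0.25 to 0.06 for Cdkn1c and -0.41 to 0.11 for Cdkn2a. For Cdkn2c, with its 16 reads on each side, the interval of -1.62 to 0.57 is the widest of the 10 and leaves room at this depth for a level in B more than 2-fold lower than in A. Lats1 had a log2 ratio of 0.04 (-0.09 to 0.17) and Lats2 of 0.00 (-0.33 to 0.34).

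**Figure D3:**
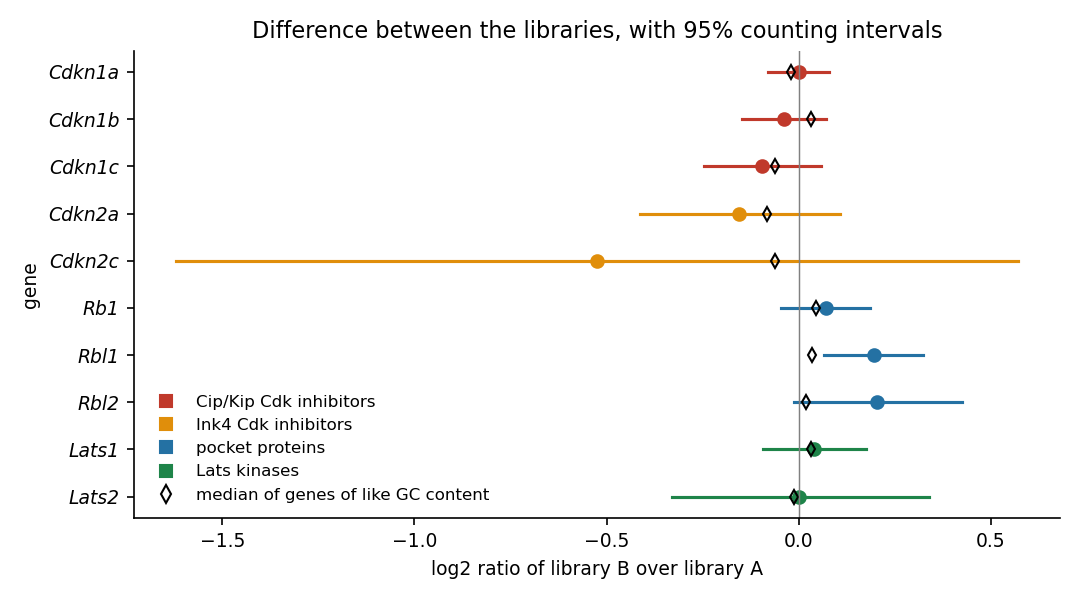
Log2 ratio of library B over library A (x axis) of the 10 genes (y axis), as circles coloured by family with 95% counting intervals, and the median ratio of genes of like GC content as open diamonds. Rbl1 is the gene whose interval, 0.07 to 0.32, leaves out 0, and Cdkn2c has the widest interval.

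The brakes were next set beside the 85 other genes of their pathway, in lists chosen by textbook role. The median level of these 85 was 33.0 TPM, and 83 were at 1 CPM or more in both libraries. The 83 with at least 10 reads were tested between the libraries, and 4 passed the adjusted exact binomial test, against the 2.29% of all genes. Cul4b, a ubiquitin ligase scaffold, was higher in B (log2 ratio 0.09, adjusted p = 0.000502 by this exact test). Higher in A by the same exact test were Ccnd3, which encodes cyclin D3 (-0.08, adjusted p = 0.0205), and the activators of the anaphase promoting complex Cdc20 (-0.08, adjusted p = 0.00901) and Fzr1 (-0.13, adjusted p = 0.00474). The largest of these 4 differences, that of Fzr1, was -0.13 on the log2 scale. With the GC trend removed 0 of the 83 passed, and with edgeR's exact test also 0. At an unadjusted p under 0.05 the exact binomial test took 15 of the 83, against the 12.4% of all genes.

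The list of G1 cyclins, Cdks and their activators, which holds the targets of the inhibitors, spanned a wide range. All 12 genes were at 1 CPM or more, with a median of 51.8 TPM, just under the level of Cdkn1a, and the lowest was Ccnd2 (cyclin D2) at 0.792 TPM. This place of Cdkn1a holds for summed exon lengths. With the other lengths Cdkn1a was at 76.0 and 145 TPM, and list medians were not recomputed. Cdk4 had 402 ± 11.8 TPM, Ccne1 (cyclin E1) 281 ± 1.70 TPM and Ccna2 (cyclin A2) 162 ± 2.06 TPM (SD, n = 2). Summed, Cdk2, Cdk4 and Cdk6 came to 441 ± 13.8 TPM (SD, n = 2) and the 7 Cdk inhibitors (3 Cip/Kip and 4 Ink4) to 140.5 ± 2.996 TPM. The ratio was 3.16 in A and 3.12 in B, 3.78 on average with longest transcripts and 2.17 with the shortest that hold the longest coding sequence. Cdk4 and Cdk6 together were at 11.4 ± 0.212 times the Ink4 sum (SD, n = 2), nearly all of it from Cdk4. This ratio was 15.3 with longest transcripts and also 15.3 with the shortest that hold the longest coding sequence. The D cyclins summed to 192 ± 1.02 TPM and the E cyclins to 294 ± 0.0854 TPM (SD, n = 2). With the shortest transcripts that hold the longest coding sequence this order turned, at 347 TPM for the D and 267 TPM for the E cyclins. These are mRNA levels, and amounts of protein or of kinase activity were not measured.

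E2F and DP genes, the partners of the pocket proteins, were at 1 CPM or more in all 10 cases, with a median of 21.5 TPM. E2f4, the E2F that pairs mostly with Rbl1 and Rbl2, was highest at 166 ± 3.78 TPM, then the dimer partner Tfdp1 (80.2 ± 0.313 TPM) and the activator E2f1 (59.8 ± 0.526 TPM; SD, n = 2). E2f4 and E2f5 summed to 7.24 times the pocket proteins in A and 6.52 times in B. The activators E2f1 to E2f3 came to 3.14 and 2.89 times. Both ratios were lower in B, where the pocket protein sum was 33.6 TPM against 30.9 TPM in A. All 5 core subunits of the DREAM complex, through which Rbl1 and Rbl2 repress cell cycle genes, were at 1 CPM or more, led by Rbbp4, Lin37 and Lin54 (155, 26.9 and 13.9 TPM).

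The list of genes linked to turnover of Cdk inhibitors, which also holds Cdc20 and Fzr1, had the highest median of these pathway lists. It was 81.8 TPM over 14 genes. Skp1a, a subunit of the SCF ubiquitin ligase that degrades p27, had 535 TPM, Ddb1 of the Cul4 ligase that degrades p21 had 522 TPM, and Cdc20 had 372 TPM. Known regulators of Cdkn1a and Cdkn2a had a median of 50.1 TPM, and 14 of 15 were at 1 CPM or more. Trp53 (p53, which activates Cdkn1a) was at 266 ± 6.77 TPM, Mycn (of the Myc family, which represses Cdkn1a) at 128 ± 5.64 TPM and Cbx7 (a Polycomb repressor of Cdkn2a) at 125 ± 3.23 TPM (SD, n = 2). The p53 relative Trp63 had 1 read in each library. The Cdk phosphatase Cdkn3, listed by itself, had 169 and 293 reads (7.14 TPM).

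Upstream of Lats1 and Lats2, all 14 Hippo genes were at 1 CPM or more, with a median of 24.9 TPM, above both Lats genes. Nf2, which brings Lats kinases to the membrane, was highest at 84.8 TPM, followed by Map4k4, a kinase that can act on Lats (76.6 TPM), and Ajuba, a Lats-binding inhibitor (66.4 TPM). Of the 7 genes of Yap, Taz and their partners, the DNA-binding Tead2 and Tead1 and the coactivator Yap1 were highest, at 80.3, 50.3 and 48.9 TPM. Yap1 and Wwtr1 (Taz) together were at 6.31 ± 0.0176 times the sum of Lats1 and Lats2 (SD, n = 2), and at 9.01 times with longest transcripts. Of 5 Yap target genes, Ccn2, Amotl2 and Ccn1 were highest (40.5, 25.8 and 13.04 TPM) and Ankrd1 had 1 read in A and 0 in B.

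**Figure D4:**
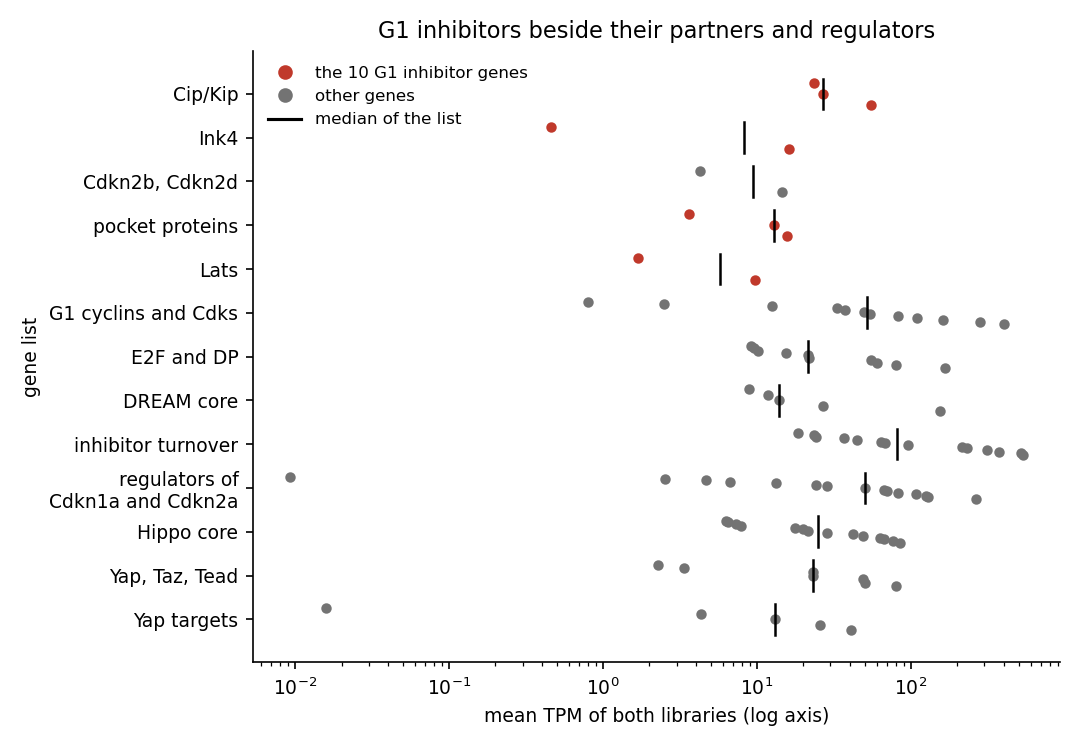
Mean TPM of both libraries on a log axis (x) for each gene (points) of the lists named on the y axis, with the 10 brakes in red, other genes in grey and list medians as black bars. The medians of the G1 cyclins and Cdks (51.8 TPM) and of the inhibitor turnover genes (81.8 TPM) lie to the right of every brake gene but Cdkn1a, and for turnover to the right of all 10. These places are for TPM over summed exon lengths and were not checked with other lengths.

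RefSeq promoters (250 bases before to 50 after a start, GRCm38.p6) were listed for 8 of the 10 genes, with 12 starts in all. They were mostly rich in CpG: the ratio of observed to expected CpG was above the median of all 32851 promoters, 0.384, in 10 of the 12. The lowest was the upstream start of Cdkn1a, at 0.0892, while the other start of Cdkn1a was at 0.786. That upstream window is also the one of the 12 with a p53 motif, given by name (a pair of decamers up to 13 bases apart, with no mismatch), which 0.0731% of all promoters held. It is shown because p53 is the best known activator of Cdkn1a, with the decamers in capitals and the spacer in lower case.
Cdkn1a, chr17:29090906-29090937 on the plus strand: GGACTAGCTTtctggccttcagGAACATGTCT
The match begins 73 bases before the start. An E-box CACGTG, which reads the same on both strands, was in the promoters at the downstream start of Cdkn2c and the upstream start of Lats2, and in 7.15% of all promoters. An E2F motif, TTTCCCGC or TTTGGCGC on either strand, was in the upstream start of Cdkn2a, the one of p19Arf, and in 1.56% of all promoters. A gene count does not tell which start was used.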

How the data were processed

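Poly-A RNA was taken with Trizol and made into libraries with the TruSeq kit by a reverse-stranded protocol, per the labels' protocols. As deposited, each library has its own table of whole-number read counts by Ensembl gene, made by the authors without normalization. STAR 2.4.2a, featureCounts 1.4.5-p1 and the build mm10 are listed per the submitters' processing notes, and annotation, strand handling and multiple matches were not given in the sources used here. Of 43629 gene IDs, 97.5% matched GENCODE M21 (GRCm38), and the other 1081 held 0.163% of the counts.

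From the counts, TMM factors (edgeR 4.0.16, R 4.3.3, genes with at least 10 reads), CPM and TPM over the union of annotated exons were computed in Python 3.11.15 (numpy 2.4.6, pandas 2.3.3, scipy 1.17.1, matplotlib 3.10.9). Log2 ratios of B over A add 0.5 reads to each count, and their 95% intervals are Clopper-Pearson intervals of the share of reads in B. The binomial test was tested on simulated data. The p-values hold no spread between libraries. GC content was taken from longest transcripts and its trend from medians in 20 bins. 3′ UTRs were those of transcripts typed protein-coding.

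Named are the 10 genes and, of every other list, the 3 highest by mean TPM and those called between the libraries, with Drosha, Cdkn2b, Cdkn2d and, chosen after their values were seen, Trp63, Ankrd1 and the genes that overlap a brake. The 10 genes and all lists were chosen with earlier results of these data known, and the E2F motif was added later. Alternatives were scaling by totals or by size factors of DESeq2 1.42.0, read filters of 1 and 50, the exact test of edgeR, GC removal, other lengths, other CPM thresholds, other seed and 3′ UTR rules, and each library alone.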

Additional observations from a re-analysis of the deposited data

How the results depend on the processing

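The number of brakes called between the libraries was 0 under all 6 alternatives run (scaling by total counts or DESeq2, a filter of 1 or 50 reads, the exact test of edgeR, GC removal). Other pathway genes called fell from 4 to 0 with the GC trend removed and to 0 with edgeR's exact test, whose assumed spread is wider by construction. They stayed at 4 with total counts and with a filter of 1 read. They rose to 5 with DESeq2 size factors and with a filter of 50 reads. Of 30 recomputed log2 ratios 27 kept direction and side of the threshold. The reversed ones are at 0 within counting error: Cdkn1a was -7.976e-05, then 0.003469 with DESeq2 size factors and 0.01862 with the GC trend removed, and Lats2 was 0.001224, then -0.006031 with total counts. The median level of the 10 genes, 14.32 TPM, became 12.82 TPM with the shortest transcripts that hold the longest coding sequence, and 13.78 to 14.44 TPM in single libraries. Its percentile went from 60.75 to 46.04 among protein-coding genes at 1 CPM or more, a smaller set without the lowest genes. A match of 8 bases to the miR-290 seed left 3 genes in place of 5, a stricter rule. Leaving out a library leaves no comparison of A with B. No paired analysis was possible because both libraries belong to the same group. Depth limits Cdkn2c most, with 16 reads in each library.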
